A study of Mus musculus with 6 samples.

Results

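Mesenchymal and meningeal transcription factors were measured in mouse astrocytes of the cerebellum and the neocortex. The group holds 10 genes, whose probe sets were taken by gene symbol from the annotation of the array platform. The genes were chosen with earlier results of these data known. They include the basic helix-loop-helix factors Twist1 and Twist2, the paired-related homeobox factor Prrx1 and the zinc finger factors Snai1 and Snai2. The others are the forkhead factors Foxc1, Foxc2 and Foxd1 and the T-box factors Tbx15 and Tbx18. The 10 genes are read by 19 of the 45101 probe sets on the array. All 10 had at least 1 probe set bright enough to be tested. Astrocytes, the glial cells that surround and support neurons, were represented by 3 arrays of cerebellar and 3 arrays of neocortical cells. Only the neocortical labels name a strain, ICR, an outbred mouse stock, so that region and strain cannot be told apart should the cerebellar cells be of another one. For neither group is an age, a way of obtaining the cells or a separate animal per array stated in the labels. The p-values thus measure only the spread between these arrays, which may be partly technical.

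These factors are best known outside the neural lineage. Twist and Snail proteins bind short DNA elements called E-boxes, and Snail proteins repress epithelial genes when cells turn mesenchymal. Prrx1 is a homeodomain factor of limb and craniofacial mesenchyme, and Foxc1, Foxc2, Foxd1 and Tbx18 are expressed in mesenchyme that forms meninges, vessel walls or skeletal tissue. The meninges cover the brain and are a common companion of astrocytes prepared from brain tissue.

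The stretch of DNA just before the transcription start was available for 7 of the 10 genes. The windows of the 4 genes that held a binding motif of one of these factor families are shown to set out what such elements look like. They are the 250 bases before the RefSeq start (build GRCm38.p6), 5′ to 3′ along the gene, with every motif match in capitals.
Prrx1, chr1:163313651-163313900, minus strand: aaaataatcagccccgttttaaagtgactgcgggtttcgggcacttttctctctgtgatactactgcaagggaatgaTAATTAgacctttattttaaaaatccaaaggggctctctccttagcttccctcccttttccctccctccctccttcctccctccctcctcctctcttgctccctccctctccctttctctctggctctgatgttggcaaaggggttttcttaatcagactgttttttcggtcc
Snai1, chr2:167537945-167538194, plus strand: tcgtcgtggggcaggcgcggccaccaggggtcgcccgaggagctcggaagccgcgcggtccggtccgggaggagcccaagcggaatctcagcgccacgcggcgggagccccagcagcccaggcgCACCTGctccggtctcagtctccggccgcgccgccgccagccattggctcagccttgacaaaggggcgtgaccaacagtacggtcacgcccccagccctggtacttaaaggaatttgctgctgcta
Foxd1, chr13:98353995-98354244, plus strand: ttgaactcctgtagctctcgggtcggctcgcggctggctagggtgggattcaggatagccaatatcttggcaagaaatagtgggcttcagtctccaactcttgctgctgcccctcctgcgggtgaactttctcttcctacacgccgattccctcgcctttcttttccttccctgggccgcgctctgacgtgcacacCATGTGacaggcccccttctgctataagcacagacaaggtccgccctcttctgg
Tbx18, chr9:87731261-87731510, minus strand: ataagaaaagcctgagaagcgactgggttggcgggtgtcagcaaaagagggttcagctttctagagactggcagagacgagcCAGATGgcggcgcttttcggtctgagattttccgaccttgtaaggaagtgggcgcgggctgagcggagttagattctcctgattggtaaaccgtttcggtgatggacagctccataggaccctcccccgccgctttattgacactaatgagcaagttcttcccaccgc
The motifs searched on both strands were the E-box CANNTG, its Snail-type form CAGGTG, the homeodomain core TAATTA, the forkhead consensus GTAAACA and the T-box element AGGTGTGA. Every CAGGTG match is also a CANNTG match. The Prrx1 window held a TAATTA that begins 173 bases before the start, the element bound by homeodomain proteins such as Prrx1 itself. The Snai1 window held a Snail-type E-box, read as CACCTG, 126 bases before the start. Foxd1 held CATGTG at 54 and Tbx18 held CAGATG at 168 bases before the start. An E-box was thus present in 3 of 7 windows, against 66.2% of all 32851 windows of this length, and a Snail-type E-box in 1 of 7, against 17.2%. TAATTA was present in 4.84%, GTAAACA in 3.17% and AGGTGTGA in 1.12% of all windows. The windows of Twist1, Twist2 and Foxc1 held none of these letters. These matches describe the sequence and say nothing of binding in these cells.

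Signal is given in arbitrary units after quantile normalization, and probe sets of different genes cannot be set against each other by brightness. Values under a floor of 62.2 were raised to it before log2 differences were fitted, and 24 bacterial control probe sets read from 2.9 to 269.2 on the deposited scale, with no word on whether their targets were added. Signal in that range is called dim here. Differences are cerebellar minus neocortical, and a probe set passed at an adjusted p of 0.05 in limma, a linear model fitted over all tested probe sets with Benjamini-Hochberg adjustment. Each gene is represented by its brightest probe set unless another is named.

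Twist1, Prrx1 and Snai2 were higher in cerebellar astrocytes, and none of the 10 genes was lower. These are 3 of 10 genes, where 5.3% of all 12616 genes tested were higher and 7.36% were lower. Because the 10 genes were chosen with earlier results known, these shares and those below are description and no test. By probe set, 6 of the 17 tested were higher and none was lower, where 4.88% of all tested probe sets were higher and 5.72% were lower. The median log2 difference of the 10 genes was 0.87, against -0.01 over all genes tested. A positive difference was fitted for 9 of 10 genes, Twist2 being the exception. The groups did not overlap for 5 genes, Twist1, Prrx1, Snai1, Snai2 and Tbx15, all with cerebellar signal above neocortical. Such a separation was found for 16.0% of all genes tested, and the opposite one for 18.3%.

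**Figure D1:**
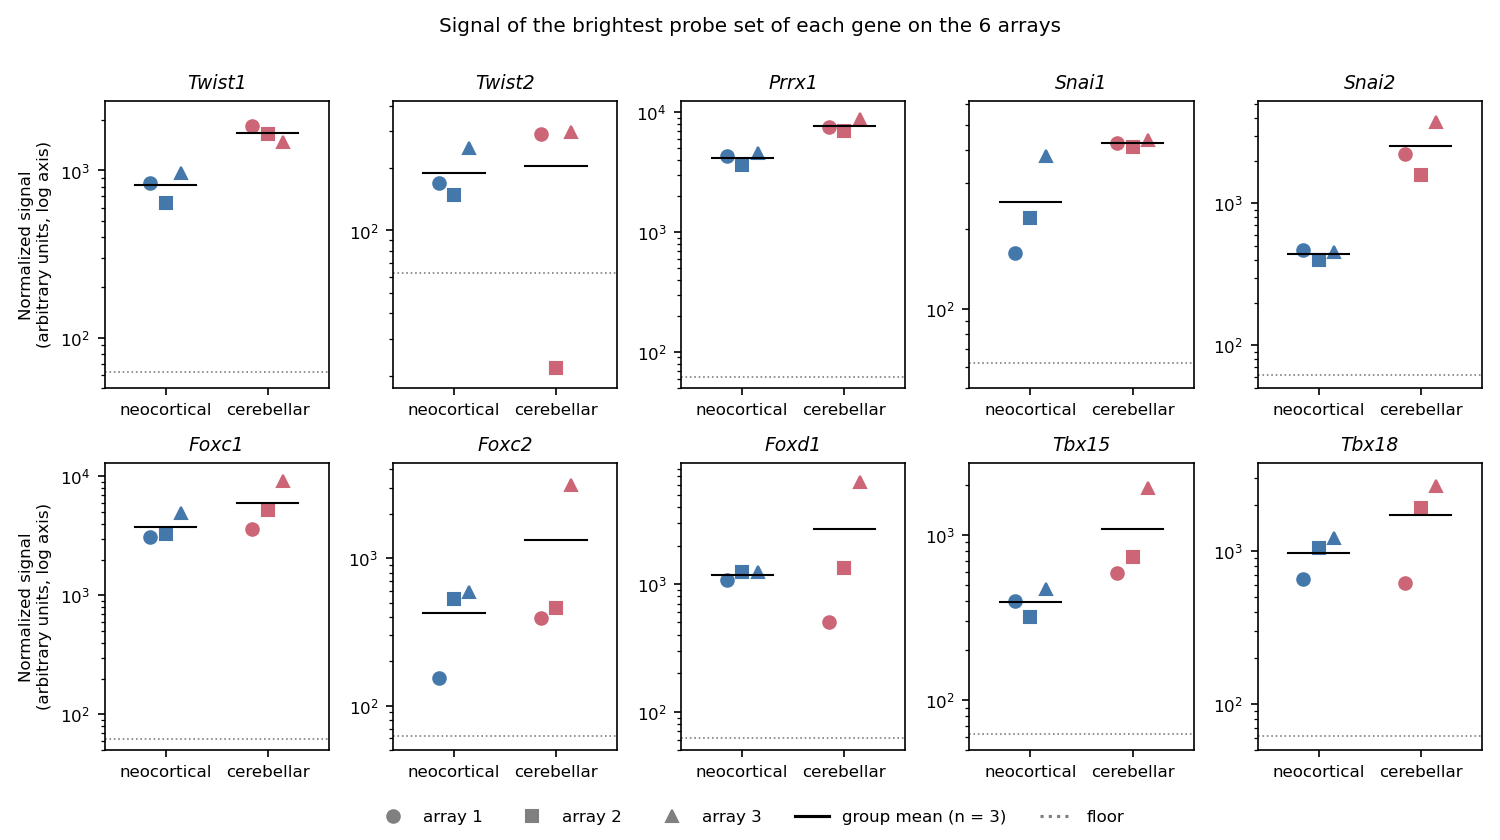
Normalized signal (arbitrary units, log axis) of the brightest probe set of each gene on the 3 neocortical (blue) and 3 cerebellar (red) arrays, with marker shapes for array numbers, bars for group means and a dotted line for the floor of 62.2. Twist1, Prrx1, Snai1, Snai2 and Tbx15 have all cerebellar points above all neocortical ones, and cerebellar array 3 is the highest point for every gene but Twist1.

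Of the helix-loop-helix factors, Twist1 passed and Twist2 did not, and the difference between them was not tested. Twist1, which directs mesoderm and cranial mesenchyme, read 1852, 1653 and 1490 on cerebellar arrays 1 to 3 and 839.4, 643.0 and 969.4 on neocortical arrays 1 to 3. Every cerebellar value thus lay above every neocortical one, with means of 1665 ± 181 and 817.3 ± 164 (SD). Its log2 difference was 1.04 ± 0.188 (SE, n = 3 arrays each), a 2.06-fold higher signal with a limma adjusted p of 0.00983. Leaving out any 1 array kept the adjusted p between 0.0186 and 0.0372. Twist2, a close relative of Twist1 in dermis and bone, read 291.3, 21.7 and 299.5 on the cerebellar and 168.8, 148.5 and 250.1 on the neocortical arrays. The second cerebellar array lay below the floor, the other values were at or near the dim range, and the groups overlapped. Its log2 difference was -0.07 ± 0.615 (SE) with an adjusted p of 0.959. The sign turned positive without cerebellar replicate 2, at 0.68.

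Prrx1 was the member with the most probe sets, 6 in all. Its brightest, 1425528_at, read 7507, 6934 and 8832 on the cerebellar and 4321, 3601 and 4539 on the neocortical arrays. The lowest cerebellar value thus exceeded the highest neocortical one by a wide margin. The log2 difference was 0.90 ± 0.129 (SE, n = 3 each), or 1.87-fold, with a limma adjusted p of 0.00323 and a range of 0.00521 to 0.0157 when arrays were left out in turn. Of the 5 probe sets tested, 4 were higher in cerebellar astrocytes, with log2 differences of 0.83 to 0.90, and the groups did not overlap on any of the 5. Leaving out single arrays cost 3 of these 4 their call in at least 1 fit, with highest adjusted p values of 0.119 for 1425526_a_at, 0.13 for 1432129_a_at and 0.0633 for 1439774_at. The fifth, 1425527_at, had a log2 difference of 0.65 ± 0.22 (SE, adjusted p = 0.0987). It passed when same-numbered arrays were treated as pairs (adjusted p = 0.0426), a pairing that the labels do not state. The last, 1458004_at, read 18.9 to 62.4 on cerebellar and 71.7 to 140.0 on neocortical arrays. It lay in the dim range, was not tested, and pointed the other way.

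The Snail genes were both above their neocortical level on all cerebellar arrays, and Snai2 alone passed. Snai2, also called Slug, a repressor of epithelial cadherin, read 2237, 1593 and 3737 on the cerebellar and 467.4, 396.8 and 450.8 on the neocortical arrays with probe set 1447643_x_at. The cerebellar values were widely spread, and the lowest of them stood clear of all neocortical values. Snai2 was 5.42-fold higher, a log2 difference of 2.44 ± 0.281 (SE, n = 3 each) with a limma adjusted p of 0.00111. The suffix of this probe set marks probes that may also match other transcripts, and the platform annotation gives it no accession. The other Snai2 probe set, 1418673_at, read 445.7, 284.3 and 596.0 on the cerebellar and 118.9, 157.7 and 293.1 on the neocortical arrays. Here cerebellar array 2 lay just under neocortical array 3, so the groups overlapped. This probe set gave a log2 difference of 1.26 ± 0.419 (SE), with an adjusted p of 0.0922, and 0.0484 with arrays paired by number. Its neocortical mean was in the dim range, and the size of the Snai2 difference thus depended on the probe set.

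Snai1, the founding Snail repressor, read 426.3, 409.5 and 437.9 on the cerebellar and 162.6, 221.0 and 380.0 on the neocortical arrays. The cerebellar arrays were nearly alike, while the neocortical arrays ran from the dim range almost up to them. The log2 difference of 0.83 ± 0.338 (SE) did not pass (adjusted p = 0.16).

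Among the forkhead and T-box genes none passed in the fit without pairs, and cerebellar array 3 was the highest array for each of them. Foxd1, a factor of kidney stroma and of meningeal and pericyte precursors, read 501.4, 1324 and 6294 on the cerebellar and 1070, 1249 and 1239 on the neocortical arrays. Cerebellar array 1 was the lowest and cerebellar array 3 the highest of all 6, with the neocortical arrays close together between them. Its fitted log2 difference of 0.45 ± 0.722 (SE, adjusted p = 0.745) did not pass. Without cerebellar replicate 3 it turned to -0.55 (adjusted p = 0.422).

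Foxc2, a factor of vessels and paraxial mesoderm, read 391.8, 462.2 and 3139 on the cerebellar and 153.5, 531.7 and 589.0 on the neocortical arrays. Cerebellar array 3 was 5.33-fold above the next highest array, and the other cerebellar arrays lay within the neocortical range. The log2 difference of 1.19 ± 0.787 (SE, adjusted p = 0.381) was 0.23 without that array.

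Foxc1, which is required for the formation of the meninges, read 3634, 5168 and 9183 on the cerebellar and 3113, 3249 and 4910 on the neocortical arrays with 1419486_at. Its groups overlapped, because cerebellar array 1 lay below neocortical array 3. The log2 difference was 0.60 ± 0.309 (SE, adjusted p = 0.257), and 0.24 without cerebellar replicate 3. In each pair of same-numbered arrays the cerebellar array was above the neocortical one, by 0.22, 0.67 and 0.90 on the log2 scale, and with the pairs as a block Foxc1 passed (adjusted p = 0.03). The second Foxc1 probe set, 1419485_at, read 1587, 2443 and 5289 against 1568, 1588 and 1875. It had the same order of cerebellar arrays and did not pass with the block (adjusted p = 0.102).

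Tbx15, a T-box factor of limb and craniofacial mesenchyme, read 591.5, 734.4 and 1932 on the cerebellar and 397.5, 317.6 and 470.6 on the neocortical arrays. All cerebellar values exceeded all neocortical ones, the third by the widest margin. The log2 difference was 1.27 ± 0.406 (SE, adjusted p = 0.082), and it passed with the arrays paired by number (adjusted p = 0.0263). Its other probe set, 1422195_s_at, read 146.3 to 343.0 on cerebellar and 65.4 to 174.4 on neocortical arrays and was not tested.

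Tbx18, a factor of vessel wall and epicardial cells, read 619.1, 1918 and 2689 on the cerebellar and 663.2, 1052 and 1224 on the neocortical arrays with 1429974_at. Cerebellar array 1 was the lowest of the 6 and cerebellar arrays 2 and 3 were the highest. The log2 difference was 0.63 ± 0.481 (SE, adjusted p = 0.447), 0.20 without cerebellar replicate 3, and 1.26 without cerebellar replicate 1 (adjusted p = 0.0238). The dimmer probe set 1449871_at gave 0.80 ± 0.446 (SE, adjusted p = 0.294).

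**Figure D2:**
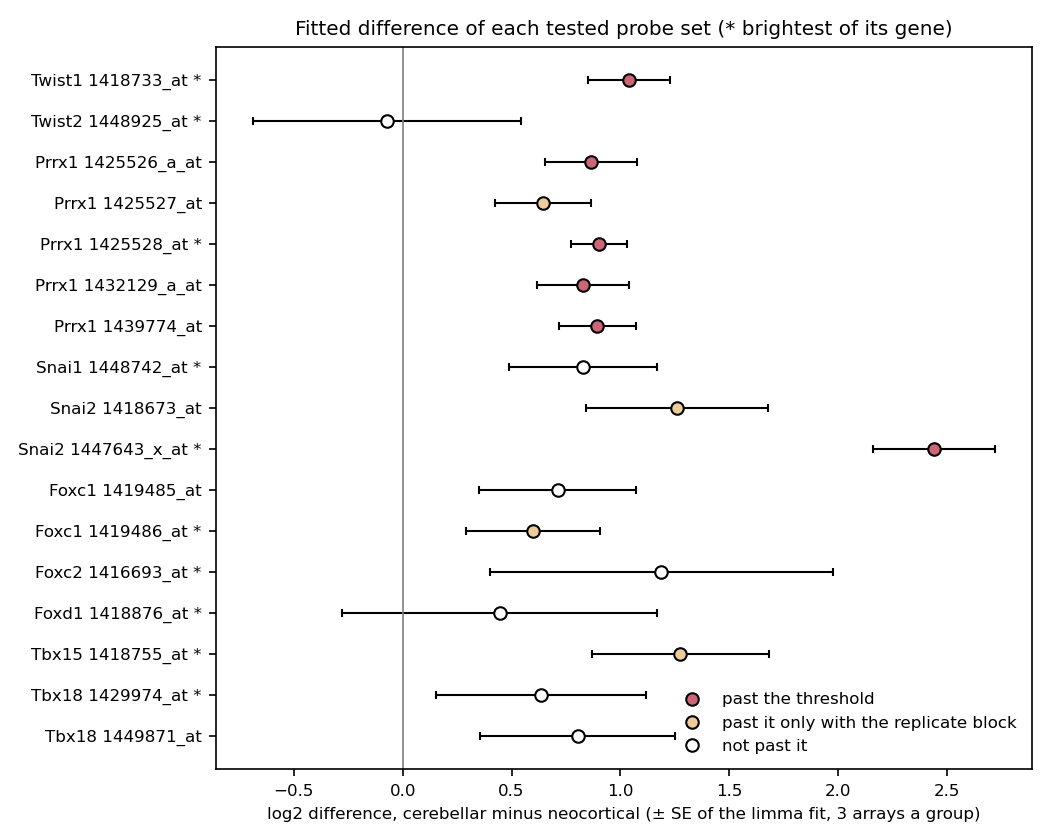
Fitted log2 difference, cerebellar minus neocortical, of the 17 tested probe sets, with bars for the standard error of the limma fit (3 arrays a group). Filled red points passed, pale points passed only with same-numbered arrays as pairs, and open points did not pass; 16 of 17 points lie right of 0, and those of Foxc2 and Foxd1 have the widest bars.

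The number of genes called differed between fits. With arrays paired by number, 5 of 10 genes were higher, Foxc1 and Tbx15 joining the first 3, where 6.04% of all genes were higher and 8.6% lower with that fit. Without cerebellar replicate 1 the count was also 5, with Tbx15 (adjusted p = 0.0351) and Tbx18 as the added genes. Twist1, Prrx1 and Snai2 passed whichever array was left out.

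On cerebellar array 3 all 10 genes lay above every neocortical array, on array 2 it was 8 and on array 1 it was 6. Of all genes tested, 31.7%, 33.8% and 34.5% lay above every neocortical array on cerebellar arrays 3, 2 and 1. Cerebellar array 3 was at least 1.5-fold above every other array for 5 of 10 genes, Snai2, Foxc1, Foxc2, Foxd1 and Tbx15, where 1.28% of all genes tested were. Array 3 exceeded array 1 at least 2-fold for 5 of 10 genes, where 4.46% of all genes did. These counts were chosen after the values were seen, and the first was 4 with arrays scaled by their median. The ratio of array 3 to array 1 was 12.6 for Foxd1, 8.01 for Foxc2, 4.34 for Tbx18, 3.27 for Tbx15 and 2.53 for Foxc1. It was 1.67 for Snai2, 1.18 for Prrx1, 1.03 for Snai1 and Twist2, and 0.805 for Twist1. All forkhead and T-box genes thus had larger ratios than the genes of the other families, and the median ratio over all genes was 0.979.

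Markers of meningeal fibroblasts also differed between cerebellar arrays 3 and 1. Of 20 listed markers 19 were tested, 1 of them higher and 2 lower in cerebellar astrocytes. With arrays paired by number 4 were higher and 3 lower: the collagen genes Col1a1 (adjusted p = 0.00597) and Col5a1 (0.0179) and the biglycan gene Bgn (0.00159) became higher, and Ccn3 became lower (0.0331). Without cerebellar replicate 1, 8 markers passed in place of 3. The summed signal of the 19 markers was 126083, 220106 and 405767 on cerebellar arrays 1 to 3 and 163441 to 219772 on the neocortical arrays. All 19 read higher on cerebellar array 3 than on array 1, 12 of them at least 2-fold, and the median ratio was 4.46. Of 9 microglial markers 8 were also at least 2-fold higher (median ratio 3.41), as were 2 of 4 endothelial ones (1.96). Array 3 was at least 1.5-fold above every other array for 9 meningeal, 2 endothelial and 0 microglial markers. The median ratios of the astrocyte and mural lists were 1.38 and 0.901. The prostaglandin synthase gene Ptgds read 873.0, 5305 and 38019 on cerebellar arrays 1 to 3, and the growth factor gene Igf2 read 2252, 21316 and 39911. The collagen gene Col3a1 read 8805, 49855 and 90464. Cldn11, a claudin of arachnoid barrier cells and oligodendrocytes, was below the floor at 18.9 on array 1 and read 856.1 and 5060 on the others. These genes were picked to show the spread after their values were seen, and the part of such cells in the result was not tested. In bulk RNA, fewer cells of a type and less RNA per cell cannot be told apart.

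Between the groups, the 3 markers that passed went in both directions. Ogn (osteoglycin), a matrix proteoglycan, was 5.43-fold lower in cerebellar astrocytes (6600 ± 2630 against 34370 ± 4880, SD, n = 3 each), with a limma adjusted p of 0.000442. It was nonetheless highest on array 3 among the cerebellar arrays, at 4887, 5281 and 9632, a ratio of array 3 to array 1 of 1.97. Islr, a leucine-rich repeat gene of mesenchymal cells, was 2.08-fold lower (adjusted p = 0.000478). S100a6, a calcium-binding protein gene, was 1.41-fold higher (adjusted p = 0.00744).

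**Figure D3:**
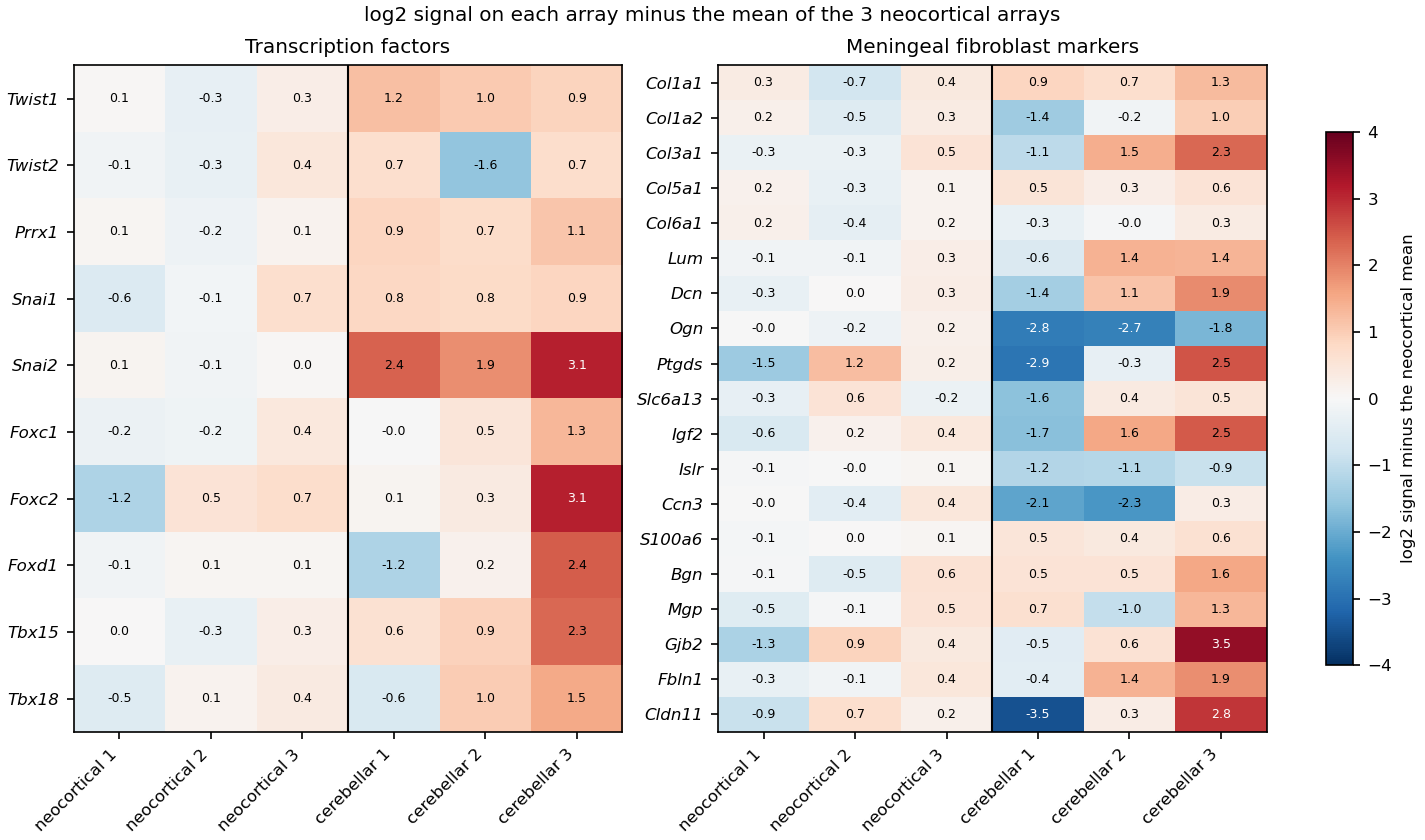
log2 signal on each array minus the mean of the 3 neocortical arrays, for the 10 transcription factors (left) and the 19 tested meningeal fibroblast markers (right), in red where above and blue where below. On the left Twist1, Prrx1, Snai1, Snai2, Tbx15 and Foxc2 are above 0 on all cerebellar arrays, and Foxd1 runs from -1.24 on cerebellar array 1 to 2.41 on cerebellar array 3, as many markers on the right do.

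**Figure D4:**
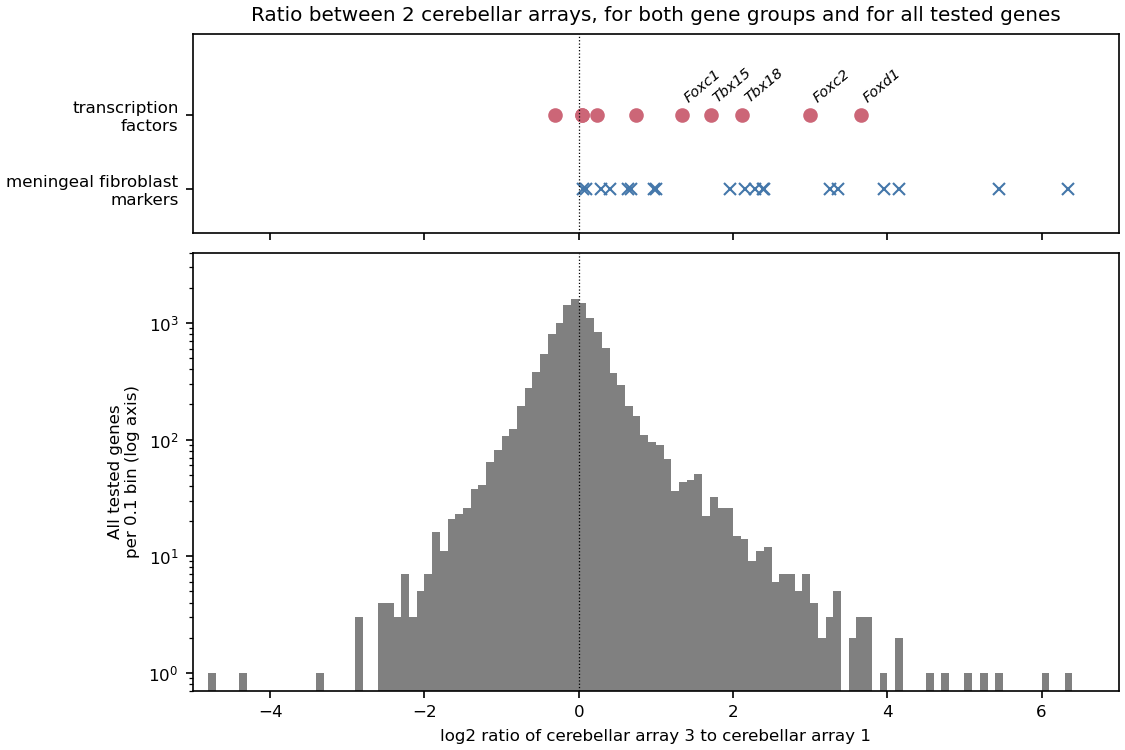
log2 ratio of cerebellar array 3 to cerebellar array 1 for the 10 transcription factors (circles), the 19 meningeal fibroblast markers (crosses) and, below, all 12616 tested genes (count per bin, log axis). Foxc1, Tbx15, Tbx18, Foxc2 and Foxd1 lie in the right-hand tail beside 12 of the markers.

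Markers of other cell types were read on the same arrays. All 12 astrocyte markers were tested, with summed signals of 161315 to 232572 on cerebellar and 229097 to 281543 on neocortical arrays, lowest on cerebellar array 1. Of these, 6 were lower in cerebellar astrocytes, led by the neurotensin receptor gene Ntsr2 (13-fold), and the water channel gene Aqp4 was higher (1.54-fold, adjusted p = 0.0434). In place of 7 astrocyte markers, 4 passed without neocortical replicate 1 and 4 without neocortical replicate 3. Of 13 mural markers 10 were tested, and their sums were 133746 to 170387 on cerebellar and 178372 to 209182 on neocortical arrays. Most of each sum came from Acta2 alone, at 79531 to 102094 on cerebellar and 112281 to 124547 on neocortical arrays. The actin gene Acta2 was 1.3-fold lower and the vitronectin gene Vtn was higher in cerebellar astrocytes, at 578.7 ± 182 against a dim 235.5 ± 34.6 (SD, n = 3 each). Acta2 missed the threshold with values as deposited (limma adjusted p = 0.223) and with arrays scaled by their median (0.167). With the replicate block 2 mural markers were higher and 2 lower, and none passed without neocortical replicate 1, neocortical replicate 3 or cerebellar replicate 2. Of the pericyte genes in that list, Rgs5, Pdgfrb, Cspg4, Des, Anpep and Notch3 were bright enough to be tested and did not pass, with log2 differences from -0.59 for Notch3 to 2.00 for Des (adjusted p = 0.0644 and 0.06). Myh11, Kcnj8 and Abcc9 were not tested and read 124.1 at most. Of 11 endothelial markers only 4 were tested, Pecam1, Cldn5 and Tie1 not among them, with sums of 1442, 2275 and 3598 on cerebellar arrays 1 to 3 and 2356 to 3441 on neocortical arrays. These sums too were lowest on cerebellar array 1 and highest on array 3. The receptor gene Kdr was 2.96-fold lower, and Eng did not pass (log2 difference 0.41). The untested endothelial markers read 306.3 at most.

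The skeletal muscle factors Myod1, Myog, Myf5 and Myf6 were among 9 of 12 muscle markers too dim to be tested, none above 295.0, while Acta1 and Actc1 had log2 differences of 0.36 and -0.09 that did not pass. Of neural crest and Schwann cell markers 6 were tested, and Tfap2a was higher while Ets1 was not past the threshold (0.24). No microglial marker of 9 passed, but their sums ran from 6386 on cerebellar array 1 to 33646 on cerebellar array 2 and from 10371 to 29336 on neocortical arrays, with Csf1r and C1qa the brightest. Of 6 choroid plexus and ependymal markers 3 were lower, Otx2 from 1536 ± 28 to a dim 150.5 ± 111 (SD, n = 3 each), Kcnj13 by 5.48-fold and Folr1 by 4.19-fold. Of 5 neuronal markers Syt1 was lower (1.59-fold), and Stmn2, another of the brightest, had a log2 difference of 0.14. The neuronal sums fell from 20045 to 13242 and 7833 over cerebellar arrays 1 to 3, against 9147 to 14391 on neocortical arrays. Most of the fall was in Stmn2, at 17383, 10508 and 5219 on the cerebellar arrays. The part of these cell types in the signal of the 10 genes was not tested.

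Other transcription factors of mesenchyme were taken from a list that, like those after it, was drawn up with earlier results of these data known. Of 38 listed, 21 were tested, 8 were higher, 1 was lower and 12 did not pass, with a median log2 difference of 0.54. Over all genes tested 5.3% were higher and 7.36% lower, the shares against which the counts of each list are to be read. Tbx2, a T-box repressor, rose from a dim 112.9 ± 32.8 in neocortical to 656.8 ± 43.8 in cerebellar cells (SD, n = 3 arrays a group), with a limma adjusted p of 0.00128. Because the lower level was dim, the size depended on the floor, with a log2 difference of 2.58 and of 1.80 with the floor at the 40th percentile. Tfap2a, a factor of neural crest, was 5.21-fold higher, with an adjusted p of 0.00477. Its neocortical arrays read 408.4, 135.2 and 308.7, the second in the dim range. The log2 difference of Tfap2a was 2.38, and 1.90 without neocortical replicate 2. With no filter it missed the threshold (limma adjusted p = 0.0719). Lmx1b, a LIM homeodomain factor of limb and midbrain-hindbrain, rose from a dim 84.77 ± 22.3 to 406.1 ± 88.7 (SD, n = 3 each, limma adjusted p = 0.00641). Its log2 difference of 2.27 was 1.09 with the higher floor and 1.76 with log2(value + 50). Lmx1b fell under the filter when any 1 cerebellar array was left out, so it was tested only through its cerebellar signal. Prrx2, the paralog of Prrx1, read 7548, 6364 and 4961 on the cerebellar and 1393, 1331 and 1567 on the neocortical arrays. It was thus higher on every cerebellar array, by 4.35-fold (adjusted p = 0.000147). Zeb1, a zinc finger repressor of epithelial genes, was the gene that was lower (1.37-fold, adjusted p = 0.048). It missed the threshold with no filter (0.168), with no variance trend (0.14) and without any 1 array except neocortical replicate 2 (up to 0.171). The related gene Zeb2 was among those higher (log2 difference 0.45, adjusted p = 0.0348). Without cerebellar replicate 1, and likewise without cerebellar replicate 2, 5 genes of the list passed in place of 9.

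Of the partners of Twist proteins, Tcf12, an E protein that dimerises with them, was 1.84-fold higher in cerebellar astrocytes (27010 ± 3330 against 14650 ± 1180, SD, n = 3 each, limma adjusted p = 0.00158). It was the 1 of 7 tested partners and inhibitors that passed, against 2 with the replicate block and 2 without cerebellar replicate 3. The inhibitor genes Id3 and Id4 were bright and had log2 differences of 0.08 and -0.24, neither past the threshold, the first turning to -0.08 with arrays scaled by their median.

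Of 18 tested junction, filament and matrix genes that mark epithelial or mesenchymal cells, 3 were higher in cerebellar astrocytes and none was lower. Fibronectin (Fn1) was 1.9-fold higher (59370 ± 2530 against 31650 ± 6420, SD, n = 3 each, limma adjusted p = 0.00344). The mesenchymal cadherin gene Cdh11 was 1.66-fold and S100a4 1.63-fold higher, with adjusted p values of 0.0269 and 0.0141. Both missed the threshold with arrays scaled by their median, at 0.0546 and 0.0908. With the replicate block 4 genes were higher and 2 lower, without neocortical replicate 1 or 3 only 1 gene of the list passed, and without cerebellar replicate 1 it was 5. The median log2 difference of the list was 0.05, and 15 genes did not pass. Among these, Cdh2, Vim, Sparc, Mmp2, Mmp14, Itga5, Itgb1 and Lox ran from -0.32 for Cdh2 to 0.79 for Lox. The epithelial junction and keratin genes ran from -1.42 for Krt8 to 1.45 ± 1.12 (SE) for the epithelial cadherin gene Cdh1 (limma adjusted p = 0.457). A shift between epithelial and mesenchymal genes was not tested.

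Among meningeal ligands, receptors and retinoid genes, 2 of 16 tested were higher and 2 were lower, with a median of -0.09. The chemokine gene Cxcl12, which meningeal cells secrete, read 2617, 4049 and 5797 on the cerebellar and 1385, 1400 and 1507 on the neocortical arrays. It had the same order of cerebellar arrays as Foxc1, and was 2.76-fold higher (limma adjusted p = 0.00714). Its receptor gene Cxcr4 was 2.3-fold higher with little spread (5535 ± 199 against 2412 ± 190, SD, n = 3 each). The growth factor genes Tgfb2 and Bmp6 were 1.73-fold and 1.65-fold lower.

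The genes whose profile over the 6 arrays was most like that of each called factor were found by the root mean square difference of centred log2 signals, over 12615 other genes. For Twist1 they were Map2k6, a MAP kinase kinase gene (0.07), Matn2, a matrilin gene (0.096), and Nab2, a corepressor gene (0.104), which were 2.2-fold, 1.91-fold and 2.09-fold higher. For Prrx1 they were Dpysl3, Cd2ap and Sh3kbp1, at 0.0715, 0.0737 and 0.0781 and 1.81-fold, 1.73-fold and 1.75-fold higher. For Snai2 the nearest was Tle2, a Groucho corepressor gene, which read 868.4, 603.3 and 1286 on the cerebellar and 247.4, 170.5 and 230.4 on the neocortical arrays (0.227). It shared with Snai2 the order of all 3 cerebellar arrays, and Sh3bp5 and Cacnb4 followed at 0.313 each. Because these genes were picked by likeness to called factors, their similar folds and array orders largely follow from the pick. Between the members, Twist1 and Prrx1 were 0.203 apart, while Twist1 and Foxd1 were 1.21 apart.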

How the data were processed

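RNA of 3 cerebellar and 3 neocortical astrocyte samples was measured on single-colour oligonucleotide arrays with biotin-labelled RNA, per the labels. The authors deposited 1 linear intensity per probe set and array. How probes were summarised is not given in the sources used here. Trimmed means (2% at each end) were 1500 on every array, and medians differed by 27%, so quantile normalization was applied to the 45037 probe sets that are no controls. The 20th percentile served as a floor, log2 was taken, and the 27022 probe sets with a mean log2 signal at or above the 40th percentile entered a two-sided limma fit (version 3.58.1, R 4.3.3) with a trended variance. The fit was tried on simulated data with independent errors for each probe set and array. Shifts shared by many genes on an array were not simulated, so that trial does not cover them.

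Genes were named through the platform annotation and Entrez IDs (GRCm38.p6). The 10 genes and all lists were chosen with earlier results of these data known. All members were named; in each list, up to 4 genes per direction past the threshold by size, or the 2 brightest where fewer than 2 passed. Likeness was computed for genes past the threshold.

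Same-numbered arrays deviated together from their group means (correlations of 0.18, 0.188 and 0.101, others -0.182 to 0.0225). Deviations from a group mean cancel within the group, so positive values for some pairs force lower ones for others. The contrast is therefore partly built in, and it was not tested. The labels do not state that same-numbered arrays belong together, and the main fit holds no pairs. As an alternative, a fit with the replicate number as a block is given where it changed the call of a member probe set, and for some of the lists. Other scalings, floors, filters and left-out arrays were tried. The number of arrays limits the precision.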

Additional observations from a re-analysis of the deposited data

How the results depend on the processing

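The 17 tested probe sets of the 10 genes gave 243 values under the alternatives, of which 212 kept their direction and side of the threshold, 20 lost the call, 7 gained it and 4 changed sign. The count of genes higher in cerebellar astrocytes was 3, with 5 under the replicate block and 3 to 5 when arrays were left out, and none was lower under any setting run. It was 2 with no filter, where Twist1 missed the threshold (adjusted p = 0.0621), and 2 without suffixed probe sets, which removed the brighter one of Snai2. Sign changes of Twist2 were 0.094 as deposited and 0.297 when the floor was the 40th percentile. With arrays left out Twist2 was tested in only 3 fits, where it ran from -0.226 to 0.681. It fell under the filter without neocortical replicate 3, cerebellar replicate 1 or cerebellar replicate 3. With arrays left out Foxd1 ran from -0.547 to 1.285. Scaled by the median, Id3 was -0.079, Csf1r -0.213 and Stmn2 -0.069. As deposited, Actc1 was 0.093 and Csf1r -0.047, and with log2(value + 50) C1qa was at 0. With arrays left out, Id3 ran from -0.067 to 0.182, Actc1 from -0.333 to 0.171, Csf1r from -0.511 to 0.737, C1qa from -0.563 to 0.757 and Stmn2 from -0.276 to 0.594. Over all probe sets 1319 were higher and 1545 lower. These became 1586 and 1447 as deposited, where more were higher than lower, and 819 and 2105 scaled by the median. They were 577 and 704 with no filter and 676 and 914 with no variance trend. With arrays left out they were 547 to 1230 and 654 to 1554, the lowest without neocortical replicate 3. Genes called were 9 of the mesenchymal factors, 5 with no filter and 5 to 7 with arrays left out; 1 of the Twist partners, 2 with the replicate block and 1 to 2; and 3 of the junction genes, 0 with no filter, 1 with no variance trend, 6 with the replicate block and 1 to 5. With the replicate block, member probe sets called rose from 6 to 10, meningeal fibroblast markers from 3 to 7 and mural markers from 2 to 4. Beyond these and those above, no other count of called genes in a list moved by over 1.5 times with that block. Astrocyte markers called went from 7 to 1 with no filter and to 3 with no variance trend. Mural markers went from 2 to 0 with no filter, and to 1 with the 60th percentile filter or no variance trend. Choroid plexus and ependymal markers went from 3 to 1 with the 60th percentile filter. The neural crest and neuronal lists went from 1 to 0 with no filter, the neuronal one also without any 1 neocortical replicate. The count of genes highest on cerebellar array 3 by 1.5-fold was 5 as deposited and 4 scaled by the median, an alternative chosen after seeing the data. The cause of these changes was not tested.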
